A study of Homo sapiens with 12 samples.

Results

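The cytosolic large (60S) ribosomal subunit is described here through 45 of its protein genes, the RPL and RPLP genes picked by symbol and by no measured value, out of 15798 genes in the table. They were read in Ribo-seq of HCT116, an established cell line from a human colorectal cancer, after 24 h of exposure to trametinib at 100 nM or to its solvent DMSO. Trametinib inhibits MEK1/2, the kinases that activate ERK. By their labels the groups of the same assay differ in the drug alone, and they stand for 1 cell line, 1 dose and 1 time. Each of the 4 groups (DMSO input, DMSO footprints, trametinib input, trametinib footprints) had 3 libraries. Input is fragmented cytoplasmic RNA and reads mRNA level, footprints are the mRNA stretches shielded by ribosomes from RNase, and ribosome density is footprints over input. All 45 genes reached 10 or more counts in 3 or more of the input libraries, the filter that left 10663 genes to test, and all 45 carry the mark of a 5'TOP mRNA in the table of the authors, as do 106 genes in total.

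The large subunit carries the peptidyl transferase centre, where amino acids are joined, the tunnel through which the new protein leaves, and a flexible stalk that recruits the translation factors. Its protein mRNAs begin with a C followed by a run of pyrimidines, the 5' terminal oligopyrimidine (5'TOP) motif. When the growth kinase complex mTORC1 is active these mRNAs are translated efficiently, and when it is inactive the protein LARP1 holds their capped start and they move out of polysomes while staying largely intact. Proliferating cancer cells devote much of their protein synthesis to ribosomal proteins, and ERK signalling, which lies below MEK, is among the inputs to mTORC1.

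The annotated starts of 10 of the genes are given below, with this motif where the rule stated after them found it. RPL3, RPL27A, RPL13A and RPL27 were among the genes with the most negative density change, RPLP2, RPL28, RPL38 and RPL17 among those with the least negative, RPL39 had the longest tract and RPL41 the shortest reading frame. Each sequence runs 5′ to 3′ over 30 bases of GRCh38.p14, from 10 bases before the RefSeq start, and the capitals mark the tract where one was found.
RPL3, chr22:39319604-39319633, minus strand: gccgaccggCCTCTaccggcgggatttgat
RPL27A, chr11:8682782-8682811, plus strand: gaaggccttCCTTTTTCgtctgggctgcca
RPL13A, chr19:49487598-49487627, plus strand: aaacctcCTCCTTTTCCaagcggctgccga
RPL27, chr17:42998409-42998438, plus strand: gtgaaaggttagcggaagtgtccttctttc
RPLP2, chr11:809957-809986, plus strand: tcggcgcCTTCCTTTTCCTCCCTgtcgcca
RPL28, chr19:55385922-55385951, plus strand: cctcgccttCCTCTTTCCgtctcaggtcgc
RPL38, chr17:74203668-74203697, plus strand: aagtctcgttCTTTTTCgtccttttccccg
RPL17, chr18:49492446-49492475, minus strand: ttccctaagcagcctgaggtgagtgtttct
RPL39, chrX:119791611-119791640, minus strand: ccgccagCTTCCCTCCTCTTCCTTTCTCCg
RPL41, chr12:56116623-56116652, plus strand: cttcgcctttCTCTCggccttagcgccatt
A tract was counted where a C lay within 3 bases of the annotated start and was followed by at least 4 bases that were each C or T. By this rule 32 of the 38 large-subunit genes in the RefSeq table used here had a tract (84.2%). The share was 16% of all 27305 genes in that table and 19.8% of the 8717 tested genes in it. On the opposite strand the shares were 10.5%, 14.5% and 15.9%. The tract of RPL39 was 22 bases long and that of RPL3 was 5. The 6 genes without a match at the annotated start were RPL4, RPL6, RPL9, RPL15, RPL17 and RPL27. Runs of C and T further from the annotated start, as near the end of the RPL27 sequence, were not counted. These 6 genes carry the 5'TOP mark of the authors like the rest, and were not shown to lack the motif.

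Counts inside reading frames summed to 2276693 to 2845568 per input library and to 10127477 to 19181588 per footprint library, so that input was the shallower assay. Of the 10 ERK output genes, 10 fell in input and 10 in footprints, which checks the drug labels. The epithelial markers EPCAM, CDH1, KRT8, KRT18 and KRT19 were present in every group. Of the intestinal markers, CDX2 averaged 69.9 to 94.8 normalized counts, while VIL1 was at or near 0. Among markers of other cell types, PTPRC, PECAM1 and COL1A2 were at or near 0, and COL1A1 averaged 42.2 to 66.9. Trametinib input replicate 2 was low for a few of the large-subunit genes, described with them. The labels number the replicates and name no separate culture, while the study describes its fold changes as means of biological replicates. The p-values measure the spread between these dishes. Since libraries were scaled to each other, a change in translation shared by all mRNAs cannot be seen, and in bulk RNA a smaller number of cells cannot be told apart from less RNA per cell.

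The share of all counts that fell in the large-subunit genes was higher in mRNA and lower in footprints under trametinib. In DMSO input the shares were 6.74%, 6.33% and 6.41% (6.49% ± 0.22, SD, n = 3), and in trametinib input they were 7.71%, 7.64% and 7.46% (7.60% ± 0.12). In DMSO footprints they were 3.44%, 2.92% and 3.36% (3.24% ± 0.28), and in trametinib footprints 2.02%, 1.91% and 1.90% (1.95% ± 0.068). Every trametinib input library was thus above every DMSO input library, while every trametinib footprint library was below every DMSO footprint library. No test was run on this score over the chosen genes.

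**Figure D1:**
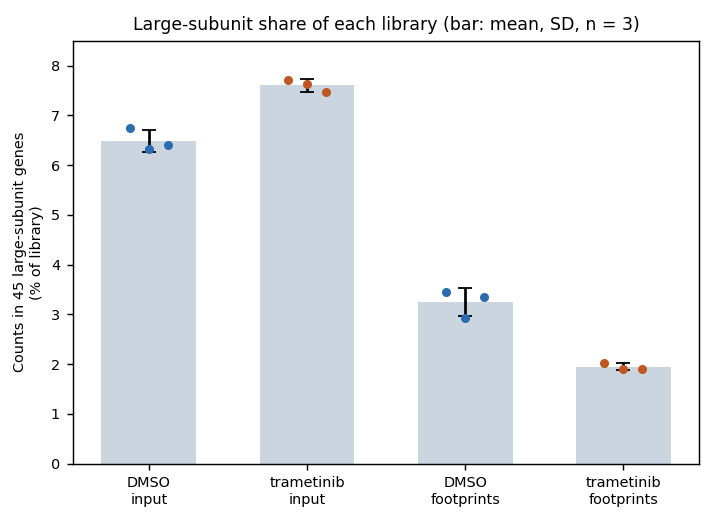
Share of each library's counts that fell in the 45 large-subunit genes, in percent, as points for single libraries and bars for the mean with its SD (n = 3). Mean shares were 6.49% and 7.60% for input (DMSO, trametinib) and 3.24% and 1.95% for footprints, with no overlap between treatments in either assay.

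Relative to all tested genes, ribosome load on the family was lower in trametinib, and most of the difference lay in footprints. The median log2 change of trametinib over DMSO was 0.18 in input, -0.97 in footprints and -1.06 in ribosome density, against -0.02, -0.02 and 0.00 over all tested genes. The density median corresponds to a 2.08-fold lower ribosome load per mRNA relative to the median tested gene, and not to an absolute load. In the 3 DMSO dishes the median log2 density of the 45 genes was -0.72, -0.82 and -0.59, and in the 3 trametinib dishes it was -1.73, -1.76 and -1.77. A dish here pairs an input with a footprint library by treatment and number, since the methods of the study describe both as taken from 1 lysate, and the labels give only the shared number.

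Ribosome density was lower at an adjusted p-value under 0.05 (DESeq2 likelihood ratio test of the interaction) for 40 of the 45 genes and higher for 0. Across all tested genes 1.41% were lower and 0.328% were higher, that is 150 and 35 genes. At an unadjusted p under 0.05, 0 large-subunit genes had a higher density, and edgeR likewise called 0 higher. Every trametinib dish lay below every DMSO dish for the same 40 genes, 88.9% of the family against 9.00% of all tested genes, and for the other 5 the dishes overlapped. With scaling to library totals the median of all genes shifted to 0.18, and the split over all genes turned to 142 higher and 112 lower, yet 38 large-subunit genes were still lower.

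In footprints alone, edgeR's quasi-likelihood test called 44 of the 45 genes lower and 0 higher, against 26.2% lower and 23.4% higher among all tested genes. By DESeq2's Wald test, and at an unadjusted p under 0.05, 0 were higher as well. With library totals the all-gene split in footprints went from 2493 higher and 2795 lower to 3570 higher and 1951 lower, and 43 large-subunit genes were lower. The footprint libraries of the treatments did not overlap, with trametinib below, for 44 of the 45 genes (97.8%) against 30.3% of all tested genes. The fall was at least 2-fold for 19 genes in footprints and for 29 in density. The 1 gene without a call in footprints was RPL17. RPL7A and RPL36A lost theirs when single footprint libraries were left out, with a range of 42 to 45 genes called.

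In input, 4 genes rose (RPL3, RPL13A, RPL22 and RPL27A), 0 fell and 41 were not called, against 14.8% higher and 17.3% lower among all tested genes. By DESeq2's Wald test 0 fell as well, and at an unadjusted p under 0.05, 1 was lower. With the replicate number as a block, 7 rose and 2 fell by edgeR, the latter being RPL38 (adjusted p = 0.0254) and RPLP2 (adjusted p = 0.0228). The estimate was above 0 for 37 genes and below 0 for 8. In 17 of the 45 genes (37.8%) every trametinib input library was above every DMSO one, against 23.2% of all tested genes. The number called higher, 4 with all libraries, was 1, 0 and 1 without trametinib input replicate 1, 2 and 3 in turn. It was 8, 2 and 3 without DMSO input replicate 1, 2 and 3 in turn. For each of the 4 the change in footprints was larger than that in mRNA.

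**Figure D2:**
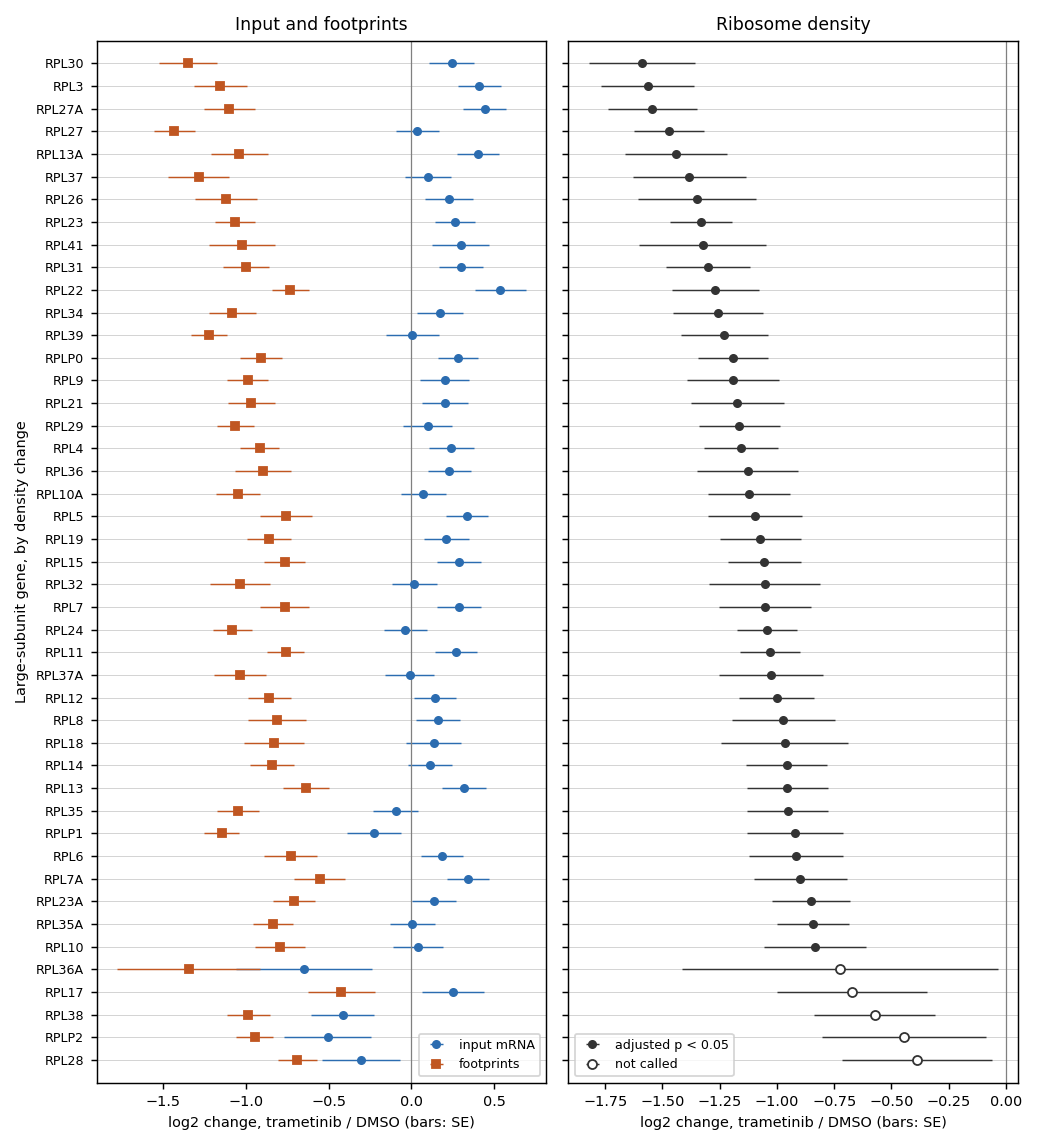
Log2 change of trametinib over DMSO for each of the 45 genes, ordered by density change, with bars of 1 SE. Input (circles) lies around its median of 0.18, footprints (squares) around -0.97, and density (right) from -1.59 for RPL30 to -0.39 for RPL28, with the 5 genes that were not called drawn as open circles.

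The 5 genes with the most negative density change were RPL30, RPL3, RPL27A, RPL27 and RPL13A. RPL30, which forms part of a bridge to the small subunit, had normalized input of 6808, 5944 and 5343 in DMSO and 7672, 6806 and 7101 in trametinib, and footprints of 10429, 7187 and 7045 in DMSO and 3144, 3105 and 3527 in trametinib. The footprint groups were far apart while the input ranges met, and density changed by -1.59 ± 0.23 on the log2 scale (SE, adjusted p = 3.84e-09, DESeq2). RPL3, an early assembling protein that reaches towards the peptidyl transferase centre, had input of 35343, 30475 and 30506 in DMSO and 43170.4, 45445 and 40450.2 in trametinib. Its footprints of 14939.7, 10749 and 10944 in DMSO and 5917, 5481 and 5191 in trametinib went the other way. Both pairs of groups were separate, mRNA rose by 0.41 ± 0.13 (adjusted p = 0.0264, edgeR), footprints changed by -1.15 ± 0.16 (adjusted p = 0.000489, edgeR) and density by -1.57 ± 0.20.

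RPL27A had input of 6156, 5687 and 5603 in DMSO and 8221, 8175 and 7502 in trametinib, with footprints of 4987, 3534 and 3680.4 in DMSO and 1964, 1952 and 1815 in trametinib. As for RPL3, mRNA rose (log2 change 0.44 ± 0.13) while footprints fell (-1.10 ± 0.15), and neither assay overlapped between treatments. Its densities in the 3 trametinib dishes were -2.07, -2.07 and -2.05 on the log2 scale, the tightest set among these 5 genes. RPL13A, which outside the ribosome is part of the interferon-induced GAIT complex, had input of 16523, 13929 and 15336 in DMSO and 19807, 20185 and 20991 in trametinib. Its footprints of 5490.1, 3512 and 4347 in DMSO and 2396, 2172 and 1978 in trametinib did not overlap either, and its density changed by -1.44 ± 0.22 (adjusted p = 3.8e-08, DESeq2). RPL27 differed from these in its mRNA, with input of 4916, 4671 and 4919 in DMSO and 5225, 5082 and 4692 in trametinib, 2 groups that overlapped. Its footprints of 4432, 4319 and 5143 in DMSO and 1683, 1604 and 1898 in trametinib gave the most negative footprint change of the family, -1.43 ± 0.12 (adjusted p = 3.35e-05, edgeR). The annotated start of RPL27 was also among those without a match to the tract rule.

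The 5S particle consists of RPL5 and RPL11 with the 5S rRNA and, outside the ribosome, binds the p53 regulator MDM2. RPL5 had input of 14582, 14649 and 13077 in DMSO and 18531, 18752 and 16520.5 in trametinib, and footprints of 6161, 6152 and 8605 in DMSO and 4201, 3844 and 4392 in trametinib. RPL11 had input of 6247, 6546 and 6254 in DMSO and 8168, 7792 and 7173 in trametinib, and footprints of 3959.5, 3701 and 4148 in DMSO and 2491, 2309.5 and 2219.7 in trametinib. In both genes the input groups were separate with trametinib above, and the footprint groups were separate with trametinib below. The 2 footprint changes were alike at -0.76 and -0.76, and both densities were called lower, at -1.10 ± 0.20 and -1.03 ± 0.13. Neither input change passed the test, with adjusted p-values of 0.0618 and 0.127 (edgeR).

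Of the stalk and its base, 3 of 4 genes had a lower density. The counts for this and the other role groups stand beside 40 of 45 over the whole family. RPLP0, the core of the stalk, had input of 35266, 31758 and 34006 in DMSO and 42174, 41842 and 39774 in trametinib, among the highest mRNA counts of the family. Its footprints of 4245, 4019 and 5102 in DMSO and 2320, 2508 and 2337 in trametinib fell by 0.91 on the log2 scale, and density changed by -1.19 ± 0.15. RPL12, at the base of the stalk, had input of 12670.5, 10935 and 11157 in DMSO and 13352, 12787 and 12523 in trametinib and footprints of 3803, 3026 and 3780.3 in DMSO and 2088, 1906 and 1902 in trametinib. Both genes were separate between treatments in footprints, and their inputs overlapped for RPL12 alone. RPLP1, an acidic stalk protein that pairs with RPLP2, had input of 11954, 9448 and 11735 in DMSO and 9140.4, 7908 and 11530.4 in trametinib and footprints of 3277, 3085 and 3428 in DMSO and 1494, 1443 and 1519.9 in trametinib. Its input groups overlapped and every trametinib footprint library was below every DMSO one, with a density change of -0.92 ± 0.21 (adjusted p = 0.00135, DESeq2). RPLP2 was not called and is described with the other exceptions.

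The wall of the exit tunnel is lined by RPL4, RPL17 and RPL39. RPL4 had input of 24556, 20331 and 19239 in DMSO and 25960.5, 26505 and 23878 in trametinib, and footprints of 9995, 8794 and 9837 in DMSO and 5246, 4977 and 5057 in trametinib. Input overlapped, footprints did not, and density changed by -1.16 ± 0.16 (adjusted p = 2.71e-10, DESeq2). RPL39, with a reading frame of 51 codons, had input of 1089, 1240.2 and 866 in DMSO and 1057, 1099 and 1079.8 in trametinib, groups that overlapped around a change of 0.01 ± 0.16. Its footprints of 1024, 929.5 and 1005 in DMSO and 459.9, 409 and 407 in trametinib fell by 1.22. RPL41, at 25 codons the shortest reading frame of the family, had input of 218, 244 and 197 in DMSO and 286, 270.2 and 259.7 in trametinib and footprints of 117, 96.4 and 111 in DMSO and 41.8, 50.9 and 69.5 in trametinib. Both assays of RPL41 were separate between treatments, and the density change of -1.32 ± 0.28 (adjusted p = 0.000242, DESeq2) rests on the second fewest counts in the family.

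At the rim of the tunnel exit, where chaperones and the signal recognition particle dock, 6 of 7 genes had a lower density, with a median of -1.07. RPL19 had input of 5541, 4799 and 4982 in DMSO and 5521, 6354 and 5993 in trametinib, and footprints of 5158, 3888 and 4729 in DMSO and 2482, 2683 and 2471 in trametinib. RPL23A, a docking site for the signal recognition particle, had input of 6519, 6542 and 5528 in DMSO and 7150.1, 6613 and 6857 in trametinib, and footprints of 3825, 3459.6 and 4484 in DMSO and 2455, 2307 and 2479 in trametinib. In both genes footprints were separate between treatments, and density changed by -1.07 ± 0.18 and -0.85 ± 0.17. RPL26, which has also been tied to p53 mRNA translation, had input of 3158, 2603 and 2416 in DMSO and 3229.7, 3044 and 3378 in trametinib, and footprints of 2896, 1767 and 2763 in DMSO and 1239, 1081 and 1121 in trametinib. RPL31 had input of 6674, 6283 and 5746 in DMSO and 8467, 7439.5 and 7339.9 in trametinib, and footprints of 5907, 4504 and 5379.8 in DMSO and 2813, 2422 and 2726 in trametinib. Their inputs overlapped for RPL26 and were separate for RPL31, and their density changes were -1.35 ± 0.26 and -1.30 ± 0.18.

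RPL22, a peripheral protein of the rim that is not needed for protein synthesis in general, had the highest input change of the family. It had input of 785, 912 and 667 in DMSO and 1095, 1202 and 1159 in trametinib, separate groups with a log2 change of 0.54 ± 0.15 (adjusted p = 0.0186, edgeR). Its footprints of 656, 563 and 706 in DMSO and 387, 397 and 385 in trametinib were separate in the opposite direction, and density changed by -1.27 ± 0.19. RPL35 had input of 5720.5, 4896 and 5931 in DMSO and 5651, 4920.2 and 5052 in trametinib and footprints of 4983, 4957 and 5351 in DMSO and 2816, 2448 and 2189 in trametinib. Its input overlapped and its footprints did not, with a density change of -0.95 ± 0.18. RPL38 was not called.

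Near the peptidyl transferase centre and among the proteins that join the subunit late, 5 of 5 genes had a lower density. RPL8 had input of 19446, 17611 and 21119 in DMSO and 20526, 21956 and 23050.5 in trametinib, and footprints of 10849, 7941 and 10323 in DMSO and 5957, 6238 and 4513 in trametinib. RPL10, which joins last and completes the catalytic site, had input of 7714, 6326 and 6516 in DMSO and 7908, 6009 and 7399 in trametinib, and footprints of 5245, 3621 and 4221 in DMSO and 2588, 2479.6 and 2543 in trametinib. Footprints were separate in both and input overlapped in both, and density changed by -0.97 ± 0.23 and -0.83 ± 0.22. RPL10A, of the mobile L1 stalk that guides the leaving tRNA, had input of 12004, 9584 and 10222 in DMSO and 11119, 11441 and 11152 in trametinib and footprints of 6275, 4881 and 4984 in DMSO and 2721, 2568 and 2581 in trametinib. RPL24, which joins in the cytoplasm, had input of 5925, 5777 and 5568 in DMSO and 5839, 5169.8 and 5954 in trametinib and footprints of 7760.3, 7163 and 7627 in DMSO and 3537, 3368 and 3831 in trametinib. Again footprints alone were separate, with density changes of -1.12 ± 0.18 and -1.04 ± 0.13, and the SE of RPL24 was among the smallest in the family.

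Of the genes listed here as mutated in Diamond-Blackfan anaemia, an inherited failure of red cell production, 9 of 9 had a lower density, with a median of -1.06. RPL15 had input of 9079, 7374 and 8309.5 in DMSO and 10486, 10129 and 9839 in trametinib, and footprints of 5091, 4287 and 5221 in DMSO and 3000.2, 2766 and 2876 in trametinib. RPL35A had input of 5015, 4604 and 4163 in DMSO and 4936, 4555 and 4468 in trametinib, and footprints of 5108, 4878 and 5104 in DMSO and 2781, 2565 and 3176 in trametinib. Input was separate for RPL15 and overlapped for RPL35A, and footprints were separate for both. RPL18 had input of 5880.1, 4185 and 6425 in DMSO and 5798, 5968 and 6481 in trametinib, with DMSO replicate 2 lowest, and footprints of 3565, 2815 and 2748 in DMSO and 1920.4, 1943 and 1303 in trametinib. Its density change of -0.97 ± 0.28 passed narrowly (adjusted p = 0.0352, DESeq2). That call and the one for RPL10 (adjusted p = 0.0153, DESeq2) were the 2 lost most often, under 17 and 14 of 28 other settings, at adjusted p-values of 0.142 and 0.111 with edgeR.

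The other 14 genes (RPL6, RPL7, RPL7A, RPL9, RPL13, RPL14, RPL21, RPL23, RPL29, RPL32, RPL34, RPL36, RPL37 and RPL37A) were all called lower in density. Their log2 changes ran from -1.38 to -0.90 in density, from -1.28 to -0.55 in footprints and from -0.01 to 0.34 in input. RPL23 had the smallest adjusted p-value of the family (6.56e-19, DESeq2), with footprints of 6762, 6377 and 7413 in DMSO and 3264, 3045 and 3569.8 in trametinib.

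The 5 genes without a density call were RPL28, RPLP2, RPL38, RPL17 and RPL36A. For RPL28, RPLP2 and RPL38 the lowest input library was trametinib replicate 2, and for RPL17 and RPL36A it was DMSO replicate 3. RPL28, which budding yeast lacks, had input of 3464, 2746 and 3835 in DMSO and 3025, 1631 and 3550.4 in trametinib, where trametinib replicate 2 was the lowest of the 6. Its footprints of 4425, 3656 and 4125 in DMSO and 2539, 2631 and 2446 in trametinib were separate, and fell by 0.69 (adjusted p = 0.00145, edgeR). RPLP2, the second acidic stalk protein, had input of 1825, 2072 and 2156 in DMSO and 2036, 754 and 1512 in trametinib, with replicate 2 again far below the rest. Its footprints of 5236, 5628 and 5981 in DMSO and 2967, 2958 and 2865 in trametinib were close to level within each group and changed by -0.95 ± 0.11. RPL38, known from the mouse for a role in the translation of Hox mRNAs, had input of 4605, 3995 and 3774 in DMSO and 3437, 2185 and 3735 in trametinib and footprints of 6440.1, 7423 and 8326 in DMSO and 3907, 3563 and 3805 in trametinib. Here too the footprint groups were separate and trametinib input replicate 2 was lowest, and all 3 trametinib inputs were below the DMSO ones.

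Relative to the mean of replicates 1 and 3, trametinib input replicate 2 deviated by -1.23 for RPLP2, -1.01 for RPL28, -0.71 for RPL38 and -0.39 for RPLP1 on the log2 scale. For the other 41 genes the deviation ran from -0.35 to 0.35 with a median of -0.01. Without that library the density change was -0.75 for RPLP2 (adjusted p = 0.02), -0.77 for RPL38 (adjusted p = 0.0108) and -0.65 for RPL28 (adjusted p = 0.196) by the same DESeq2 test. RPLP2 and RPL38 were then called, RPL18 was not (adjusted p = 0.112), and 41 genes were lower. With all libraries the 95% intervals of the density change were -1.03 to 0.26 for RPL28, -1.15 to 0.26 for RPLP2 and -1.09 to -0.06 for RPL38, so that a fall near the family median was outside the interval of RPL28 alone.

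RPL17 and RPL36A, with RPL28 and RPLP2, were the 4 genes with the largest SE of the density change. RPL17, of the tunnel wall, had input of 988, 1091 and 656 in DMSO and 1203, 1068 and 1008 in trametinib and footprints of 508, 363 and 679.8 in DMSO and 392, 348 and 426 in trametinib, with overlap in both assays. Its density change was estimated at -0.67 ± 0.33 (interval -1.32 to -0.03), in the direction of the family. RPL36A, near the exit site for tRNA, had input of 97.1, 71.3 and 25.8 in DMSO and 45.7, 48.9 and 30.9 in trametinib and footprints of 11.1, 5.86 and 7.37 in DMSO and 4.92, 2.88 and 1.43 in trametinib, the fewest counts of the family, with footprints separate and input not. Its interval, -2.07 to 0.62, held both 0 and the family median. Both symbols share sequence with a readthrough symbol in the table, RPL17-C18orf32 and RPL36A-HNRNPH2, and reads shared between symbols were not counted, so that their values rest on part of their sequence.

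**Figure D3:**
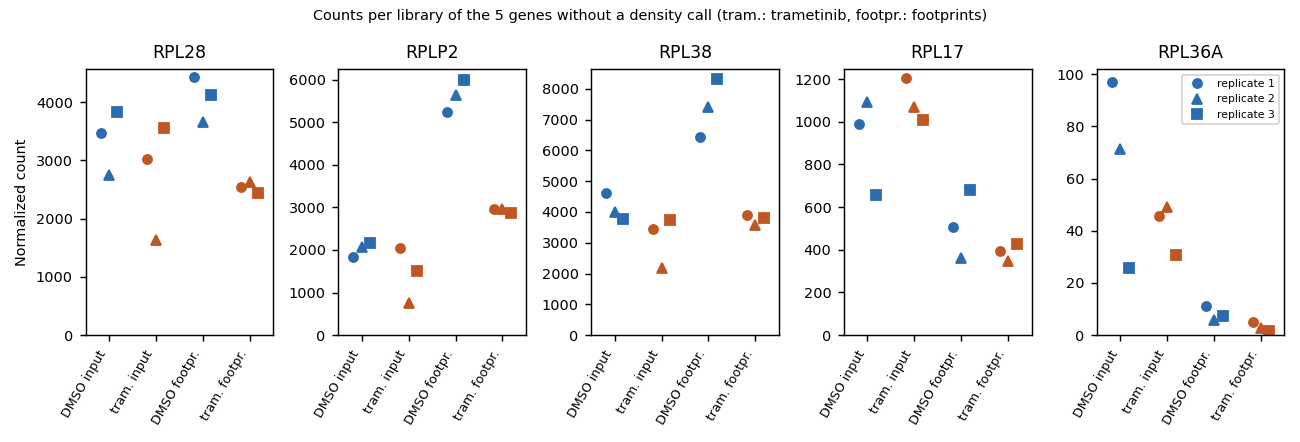
Normalized counts in each of the 12 libraries for the 5 genes without a density call, with 1 marker shape per replicate number. Trametinib input replicate 2 (orange triangle) lies lowest among the inputs of RPL28, RPLP2 and RPL38, while the footprint groups of these 3 genes are separate.

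The 45 density changes were spread by an SD of 0.27 on the log2 scale, beside a median SE of 0.20 for a single gene. The 95% interval excluded the family median for 6 genes, with 5 below it (RPL3, RPL23, RPL27, RPL27A and RPL30) and 1 above it (RPL28). For the others the interval included the median. The intervals were not adjusted for the number of genes, and the RPL28 change was -0.65 without trametinib input replicate 2. Across the genes the density change had a Pearson's r of -0.01 with log2 coding length and 0.24 with transcript GC content (both n = 45). With the length of the tract r was 0.13 (n = 38), where the 6 genes without a match at the annotated start counted as 0. These correlations are descriptions over genes that share libraries. The 32 genes with a tract at the annotated start had a median density change of -1.05. The 6 without a match there, which were not shown to lack the motif, had -1.11. The 7 not in the sequence table had -1.10.

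Without the drug, after 24 h in DMSO, the genes already differed in density. With libraries scaled so that the median tested gene lay at a log2 density of 0.03 to 0.06 in DMSO, 37 of the 45 genes had a mean density below 1 in DMSO and 43 in trametinib. The median gene had a density of 0.589 in DMSO and 0.284 in trametinib, on a linear scale. RPLP0 had the lowest mean in DMSO, with log2 densities of -3.05, -2.98 and -2.74 in the dishes. In the trametinib dishes it had -4.18, -4.06 and -4.09. Its DMSO dishes overlapped those of RPL36A, at -3.08, -3.50 and -1.74, so that these genes could not be ranked in DMSO. RPLP2 was highest, with 1.52, 1.44 and 1.47 in DMSO and 0.54, 1.97 and 0.92 in trametinib, where dish 2 holds the low input library. The stalk genes thus lay at both ends of the order by DMSO mean.

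The order of the genes was similar in both treatments, with a Spearman's rho of 0.931 between mean DMSO and mean trametinib log2 density over the 45 genes (Pearson's r 0.956). Beside RPLP2 and RPLP0, RPL38 and RPL30 were high in DMSO, with linear densities of 1.79 and 1.35, and RPL13A and RPL36A were low, with 0.287 and 0.147. Density in DMSO had a Pearson's r of -0.31 with log2 coding length (Spearman's rho -0.401). Of the 44 pairs of neighbours in this order, 42 overlapped in their DMSO dishes and could not be ranked.

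**Figure D4:**
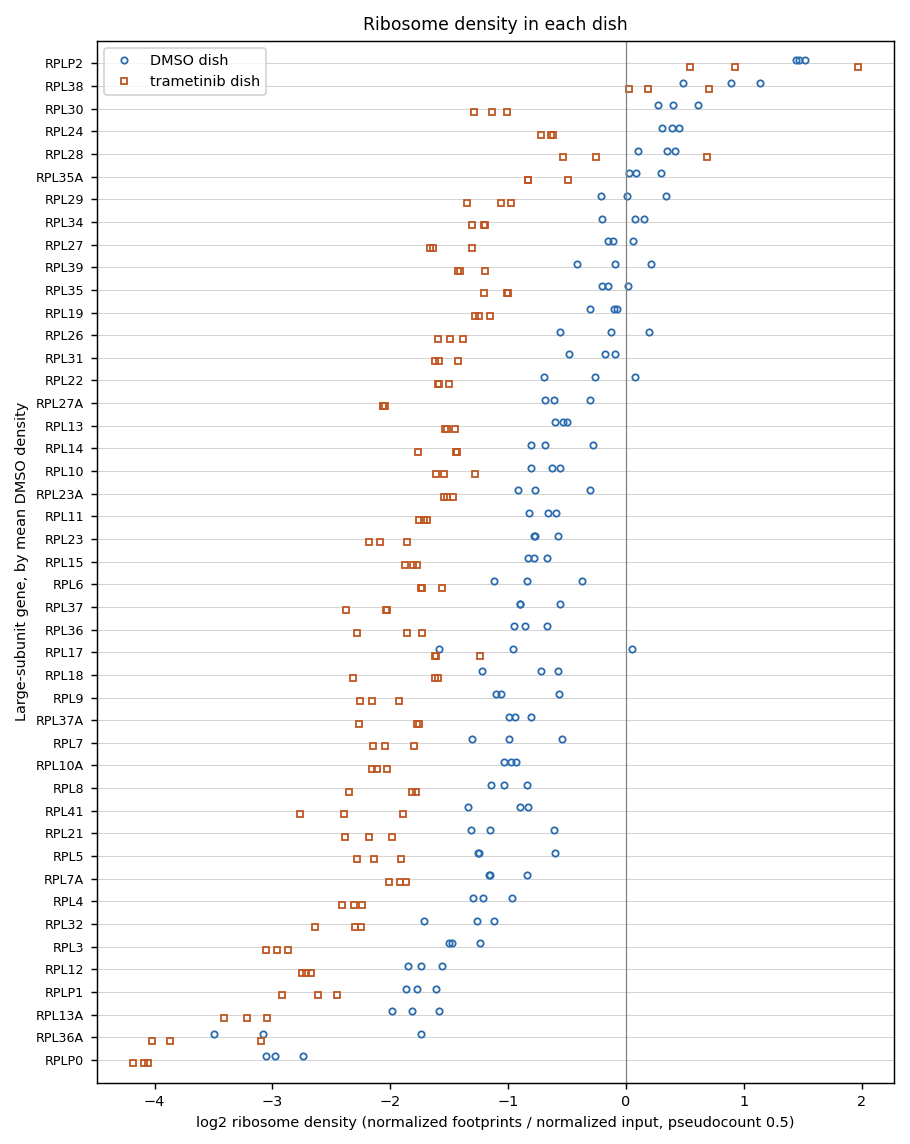
Log2 ribosome density of each of the 45 genes in each dish (circles DMSO, squares trametinib), ordered by the DMSO mean. The trametinib dishes lie below the DMSO dishes for 40 genes, and the dishes overlap for RPL17, RPL28, RPL36A, RPL38 and RPLP2.

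Levels of mRNA, compared per kilobase of coding sequence, were far from equal although the subunit holds a single copy of most of these proteins. The median gene had 13921 normalized input counts per kilobase in DMSO. RPLP0 had the most, 35412, followed by RPLP1 with 32298 and RPL37A with 32149. The lowest were RPL36A with 203, RPL17 with 1651, RPL22 with 2052 and RPL41 with 2927. In footprints per kilobase RPL38 led with 35221, ahead of RPL30 with 23827. Reads shared with near-identical copies, or with a readthrough symbol as for RPL17 and RPL36A, were not counted, which lowers such genes in both assays. The part of such reads in this order was not tested.

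The genes of the other ribosomal groups set these values in context. Of all tested genes, 17.3% fell in input, 26.2% in footprints and 1.41% in density. Of 32 cytosolic small-subunit genes, 26 had a lower density and 0 a higher one, with a median of -1.08, beside -1.06 for the large subunit, and the difference between the subunits was not tested. By edgeR, and at an unadjusted p under 0.05, 0 small-subunit genes were likewise higher. RPS18 and RPS3A were the most negative at -1.44 and -1.38, and RPS26 and RPS16 the least at -0.33 and -0.46. Of 48 tested genes of the mitochondrial large subunit, 0 were called in density in either direction by DESeq2, with a median of -0.05, while 14 fell in input and 28 in footprints. By edgeR 0 were called in density as well, and at an unadjusted p under 0.05, 1 was higher and 2 were lower. MRPL35 and MRPL10 lay lowest at -0.56 and -0.48, and MRPL46 and MRPL33 highest at 1.12 and 0.39.

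The 60S assembly factors, which build the subunit and leave it, were called mostly in input and footprints. Of 48 tested, 27 fell in input, 1 rose, 40 fell in footprints and 1 fell in density. The medians were -0.59, -0.76 and -0.10 for the 3 measures. Among all tested genes 17.3% fell in input, 14.8% rose, 26.2% fell in footprints and 1.41% fell in density. The 1 called in density was NOP53, a nucleolar factor of late pre-60S processing, at -1.48 ± 0.21 (adjusted p = 2.71e-10, DESeq2), which also was the 1 that rose in input (0.64). NLE1 came next at -0.89, and DDX27 and BCCIP lay highest at 0.32 and 0.26, none of them called. Of the paralogs, RPL7L1, RPL22L1, RPL26L1 and RPL36AL had density changes of -0.19, -0.60, 0.14 and -0.31 and were not called.

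**Figure D5:**
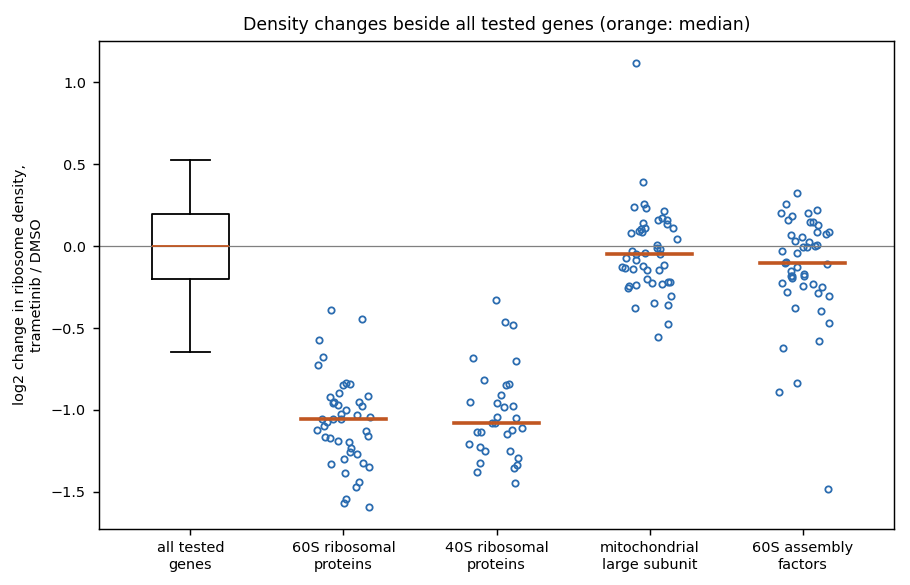
Log2 change in ribosome density for the genes of 4 groups (points, with orange bars for medians) beside all 10663 tested genes (box from the 25th to the 75th percentile, whiskers at the 5th and 95th). The medians are -1.06 for the large and -1.08 for the small cytosolic subunit, -0.05 for the mitochondrial large subunit and -0.10 for 60S assembly factors.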

How the data were processed

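Ribo-seq input and footprint RNA of 25 to 35 nt were sequenced from 12 libraries. The authors aligned reads with Bowtie 1.2.2 after removal of rRNA and tRNA reads and deposited, per gene symbol, raw counts of reads inside reading frames (GRCh38) that matched that symbol alone. The deposited table of the authors also holds the counts divided by a size factor, fold changes and adjusted p-values, and those last columns were not used. Recomputed size factors equalled theirs (tolerance 1e-06) in 12 of 12 libraries, and 0 per-sample columns were left unused.

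From the raw counts, ribosome density was tested as the interaction of assay and treatment by a likelihood ratio in DESeq2 1.42.0 (R 4.3.3) over all 12 libraries. The study names a likelihood ratio test in DESeq2, and the interaction formula and filters were chosen here, without independent filtering and with Cook's filter, which left 2 genes without an adjusted p. Input and footprints were tested by edgeR 4.0.16 quasi-likelihood with TMM within 6 libraries each, and an SE from edgeR is the log2 change over the square root of F. The filter was 10 or more counts in 3 or more inputs, with Benjamini-Hochberg adjustment over all 10663 tested genes and a threshold of 0.05. Density per dish is log2 of normalized footprints over normalized input, each plus 0.5. Intervals are the estimate ± 1.96 SE. Coding lengths and GC content come from Gencode V44 and start sequences from RefSeq, GRCh38.p14.

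The genes named singly are the 5 most and 5 least negative in density change and those of the role groups, and of other lists the 2 strongest in each direction. The 45 genes and all lists were chosen with earlier results of these data known. Alternatives were other tests, scalings, filters and replicate terms, and leaving out libraries or dishes.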

Additional observations from a re-analysis of the deposited data

How the results depend on the processing

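Of the density changes of the 45 genes, 0 turned direction under the settings tried, 41 of 1260 values lost their call and 2 gained one, mostly RPL10 and RPL18. The number of large-subunit genes with a lower density was 38 with edgeR, 35 with limma, 39 with TMM, 38 with library totals and 34 to 41 when single libraries or dishes were left out, which is within 1.5 times the 40 called. Other counts moved further. Genes with a higher density over the whole table went from 35 to 5 with edgeR, 4 with limma, 142 with library totals and 7 to 38 when single libraries were left out, and to 31, 9, 41, 7, 3 and 17 when dishes were left out. Genes with a lower density went from 150 to 99 with limma, 111 to 181 when single libraries were left out, and 97, 96 and 107 without trametinib dishes 1, 2 and 3. Library totals moved the median change of the large-subunit genes to -0.88 in density and -0.78 in footprints, with all-gene medians at 0.18 and 0.16, and the median DMSO log2 density of the family to -0.94. The family median of the density change was -1.17 to -1.02 when libraries or dishes were left out. In input, the 4 genes that rose became 0 to 8, the 0 that fell became 0 to 1, and the 1575 genes that rose among all tested became 1020 to 1671, when single libraries were left out. Without mitochondrially encoded genes in the total, the shares were 6.81% in DMSO input and 7.94% in trametinib input. The cause of these shifts was not tested. Input depth, at most 2845568 counts, limits the density of low genes such as RPL36A.

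The pairing by replicate number was checked over 7669 genes whose normalized counts averaged 100 or more. Deviations from the group means correlated between same-numbered input and footprint libraries with r of 0.815, 0.181 and 0.343 (DMSO) and 0.139, 0.0813 and -0.116 (trametinib), and between treatments with r of 0.0484 to 0.329, Pearson's r across genes, which are not independent replicates. These were above 0.1 for every pair of DMSO input with footprints and of footprints between treatments, but not for trametinib input with footprints or for inputs between treatments. The densities per dish assume that same-numbered libraries came from 1 lysate, which these correlations leave unsettled in trametinib. With the number as a replicate block, no call of a large-subunit gene changed in density or footprints: 40 large-subunit genes were lower in density and 44 in footprints, 7 rose and 2 fell in input (RPL38 and RPLP2), and 20 genes over the whole table had a higher density. With a term per dish, 40 were lower in density.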
